A study of Mus musculus with 2 samples.

Results

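The interferon regulatory factors (IRFs) were chosen by gene symbol, and 7 of the 8 listed members had a row among the 37451 genes of the table. These were *Irf1*, *Irf2*, *Irf3*, *Irf4*, *Irf5*, *Irf7* and *Irf9*, while *Irf8* was not analysed here. The table holds 1 library of wild-type (WT, C57BL/6) bone marrow-derived macrophages (BMDMs) and 1 library of ΔM BMDMs (C57BL/6, TTP fl/fl LysMCre). In ΔM mice the gene *Zfp36*, which encodes the mRNA-destabilizing protein tristetraprolin (TTP), is deleted in myeloid cells by a Cre recombinase driven from the lysozyme M locus. The bone marrow came from littermates of 7 to 9 weeks and was grown into macrophages with CSF-1 from L929 cells. Both cultures received 100 μM 4-thiouridine for 16 h and then 10 ng/ml LPS for 6 h, so that no unstimulated state was among the libraries. Whether the marrow of several mice was combined is not given in the sources used here.

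IRFs are transcription factors that share an N-terminal DNA-binding domain with a conserved run of tryptophans and bind interferon-stimulated response elements. In macrophages exposed to LPS, the receptor TLR4 activates IRF3 through the adaptor TRIF and the kinase TBK1, which starts the transcription of interferon β. Secreted interferon then signals through a complex of STAT proteins with IRF9, and this complex in turn drives *Irf7* transcription and many antiviral genes.

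Values are FPKM, fragments normalised for exon length and for the library's mapped fragments, so that levels of different genes can be set side by side within a library. The steps between low FPKMs placed the depth at about 36900000 fragments in WT and 32600000 in ΔM. The counting intervals given below are 95% Poisson intervals from these depths and cover counting error only. They are approximate, since reads copied by PCR from the same molecule are not independent. Whether such copies were removed is not given in the sources used here. With 1 library per genotype there is no replicate check and no p-value, and fewer cells of a type cannot be told apart from less RNA per cell. The targeted gene *Zfp36* was at 65.3 (WT) and 16.7 FPKM (ΔM). All 8 macrophage markers, among them *Emr1*, *Csf1r* and *Cd68*, were at 1 FPKM or more in both libraries, with summed levels of 4001 (WT) and 2864 FPKM (ΔM). Most of that gap lay in *Lyz2*, the lysozyme M gene, at 2481 (WT) and 1356 FPKM (ΔM). None of the 5 B cell, 4 NK cell, 5 dendritic cell and 5 fibroblast markers reached 1 FPKM in either library. Among the 5 T cell markers the kinase gene *Lck* alone did so, at 9.58 (WT) and 10.8 FPKM (ΔM), while *Cd3e* and *Cd3g* were listed at 0 in both. Among the 7 neutrophil markers *S100a8* alone did so, at 50.7 (WT) and 100.02 FPKM (ΔM), while *Ly6g*, *Elane* and *S100a9* were listed at 0 in both. Whether T cells or neutrophils were present was not tested. The part of any such cells or of the *Lyz2* difference in the values below was not tested either.

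The sequences that bear on these genes are the TTP sites in the *Irf1* mRNA and the promoters of the members described most closely below. TTP binds AU-rich elements in the 3′ UTR of mRNAs. The sites below were located by crosslinking (PAR-iCLIP) in *Irf1*, which occupies chr11:53583516-53591876 on the plus strand of mm9. Of 4 such sites the one that holds ATTTA and the one from 6 h of LPS are shown. Both fall in exon 10 of 10 of the transcript Irf1-001, in its 3′ UTR. The site from 3 h of LPS is chr11:53590609-53590625, 200 nt before the end of this transcript. The site from 6 h of LPS is chr11:53590801-53590803, 22 nt before it. A further site from 3 h of LPS, chr11:53590800-53590804, is not shown and contains the 6 h site, so that this position was listed at both times. The letters were read on the sense strand from NCBIM37 and matched the listed sites, with the sites in capitals and 6 or 10 flanking bases in lower case.
*Irf1* site at 3 h: aggcctTTGCATTTATTTATATAgtgcct
*Irf1* site at 6 h: atatttgtctTTTtataaaaatt
The 3 h site shown holds ATTTA at 2 overlapping positions. The flanked 6 h site and the 3 h site that contains it hold none.

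The promoters below are RefSeq windows on GRCm38.p6, from 250 bases before to 50 bases after the annotated start, and all 7 members matched a window (9 windows in all, since *Irf1* and *Irf9* have 2 each). They are shown for *Irf2* and *Irf5*, the members with the largest ratio between the libraries, and for *Irf1*, a member close to *Irf5* in level. Capitals mark matches to GAAA repeated after a spacer of 2 bases, the core of an interferon-stimulated response element, or to TTCNNNGAA, a STAT site. Both strands were searched.
*Irf2* (chr8:46739495-46739794, plus strand): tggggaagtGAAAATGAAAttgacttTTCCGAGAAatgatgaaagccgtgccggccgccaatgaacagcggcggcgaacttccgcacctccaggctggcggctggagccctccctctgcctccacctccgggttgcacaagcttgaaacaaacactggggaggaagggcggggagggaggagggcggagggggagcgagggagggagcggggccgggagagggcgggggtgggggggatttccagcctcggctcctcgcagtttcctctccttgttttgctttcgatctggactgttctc
*Irf5* (chr6:29526375-29526674, plus strand): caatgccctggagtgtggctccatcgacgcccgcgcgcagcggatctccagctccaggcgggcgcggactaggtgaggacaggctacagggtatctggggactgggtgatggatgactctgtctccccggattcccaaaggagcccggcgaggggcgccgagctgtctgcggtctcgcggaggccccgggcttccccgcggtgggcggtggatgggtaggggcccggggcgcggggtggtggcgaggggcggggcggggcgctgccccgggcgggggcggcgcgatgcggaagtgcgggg
*Irf1*, upstream start (chr11:53769764-53770063, plus strand): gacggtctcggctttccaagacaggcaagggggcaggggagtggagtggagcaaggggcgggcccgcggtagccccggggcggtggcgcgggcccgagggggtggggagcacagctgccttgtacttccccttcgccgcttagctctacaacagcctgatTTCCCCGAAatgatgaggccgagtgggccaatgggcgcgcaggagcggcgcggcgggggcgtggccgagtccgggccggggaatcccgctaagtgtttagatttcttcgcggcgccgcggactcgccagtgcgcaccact

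The response element core occurred in 1 of the 9 windows, that of *Irf2*, as GAAAATGAAA with its first base at -241 from the start. Of all 32851 windows of this length, 3.44% held it. The STAT site occurred in 2 of the 9 windows, as TTCCGAGAA at -224 in *Irf2* and as TTCCCCGAA at -90 in *Irf1*, against 8.3% of all windows. The *Irf2* matches do not overlap each other. The *Irf5* window holds neither motif. Its share of G or C was 74.7%, beside 69.3% and 75% in the *Irf1* windows and 62.7% in that of *Irf2*. The windows of the other members ranged from 52.7% to 61%, and the median over all windows was 52.7%. A match is a description of letters and not evidence of binding.

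The members ranged from barely detected to among the most abundant protein-coding mRNAs. *Irf7*, the interferon-induced member that amplifies type I interferon production, was the most abundant, at 989 (WT) and 994 FPKM (ΔM), and ranked 16 and 15 among all protein-coding genes. *Irf1*, a factor induced by interferon γ and NF-κB signaling that activates antimicrobial genes such as *Nos2*, was at 107 (WT) and 109.5 FPKM (ΔM). *Irf5*, which acts downstream of MyD88 and drives inflammatory cytokine genes, was at 97.8 (WT) and 136 FPKM (ΔM). *Irf9*, the DNA-binding subunit of the interferon-activated complex with STAT proteins, was at 18.1 (WT) and 18.0 FPKM (ΔM). *Irf2*, mostly known as a repressor that competes with IRF1 for its sites, was at 11.2 (WT) and 14.9 FPKM (ΔM). *Irf3*, the constitutively expressed factor activated by phosphorylation, was the lowest of the clearly expressed members, at 7.34 (WT) and 7.71 FPKM (ΔM). *Irf4*, known from lymphocytes, dendritic cells and alternatively activated macrophages, was at 0.03 FPKM in WT and listed at 0.00 in ΔM.

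**Figure D1:**
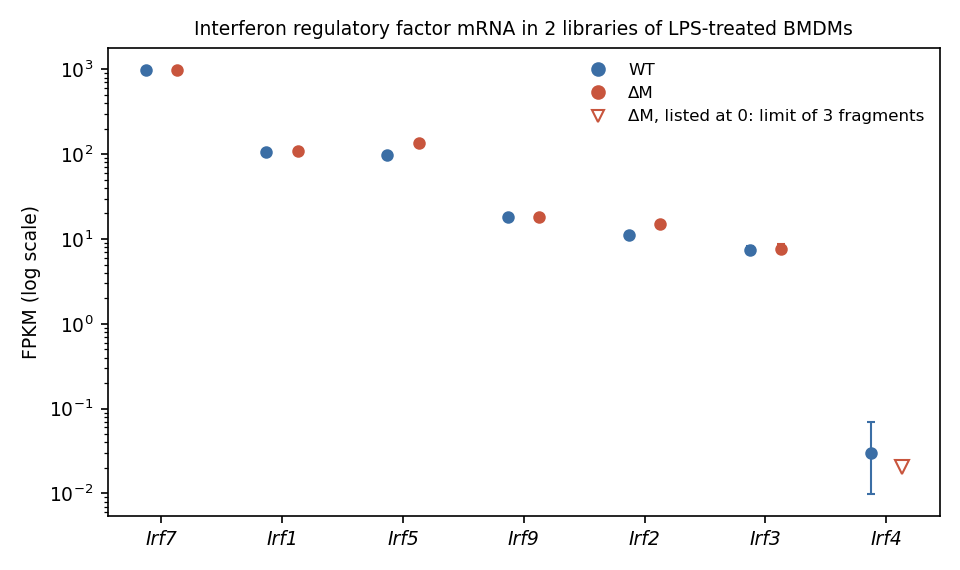
FPKM (log scale) of the 7 members in the WT and ΔM libraries, with bars for the 95% counting interval where it is wider than the symbol and an open triangle for the level that 3 fragments would give where a gene is listed at 0. The pairs of points lie at almost the same height except for *Irf5*, *Irf2* and *Irf4*. *Irf4* lies far below the others, and its ΔM triangle marks a limit and not a level.

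The summed FPKM of the members was 1230.1 in WT and 1281 in ΔM, of which *Irf7* held 80.4% and 77.6%. Without *Irf7* the sums were 241 FPKM and 286 FPKM, a ratio of 1.19. *Irf1* held 44.2% of this smaller sum in WT and 38.2% in ΔM, whereas *Irf5* held 40.5% in WT and 47.6% in ΔM. In the order of levels, *Irf7* was 9.26 times *Irf1* in WT and 7.3 times *Irf5* in ΔM. *Irf1* and *Irf5* stood in opposite order in the libraries, with *Irf5* at 0.916 of *Irf1* in WT and at 1.24 times *Irf1* in ΔM. This ratio within a library does not depend on the scaling between the libraries. The 95% counting intervals of *Irf1* and *Irf5* in WT lay close together, from 102.6 to 111 FPKM and from 93.4 to 102.3 FPKM. With the shortest annotated transcripts in place of the median ones they ran from 100.9 to 113 FPKM and from 89.8 to 106 FPKM and overlapped, so that their order in WT is not firm. The intervals of the other neighbors in the order did not overlap in either library.

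Between the genotypes, *Irf5* and *Irf2* were higher in ΔM by more than their counting error, and the other 4 members that averaged 1 FPKM or more were not. *Irf5* (ENSMUSG00000029771) occupies chr6:29476625-29491869, plus strand, and all gene positions here are on mm9. Its level went from 97.8 to 136 FPKM, a ratio of ΔM to WT of 1.39 with a counting interval from 1.31 to 1.48, from about 1851 and 2278 fragments. *Irf2* (ENSMUSG00000031627) spans 108 kb, at chr8:47825099-47932812, plus strand. Its level went from 11.2 to 14.9 FPKM, a ratio of 1.33 with a counting interval from 1.22 to 1.45, from about 945 and 1110 fragments. On the log2 scale after adding 1 FPKM, the scale used for all counts of genes here, the ratios of ΔM to WT were 0.47 for *Irf5* and 0.38 for *Irf2*.

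For the other 4 members that averaged 1 FPKM or more, the counting interval of the ratio included 1. *Irf7* (ENSMUSG00000025498, chr7:148448605-148452380, minus strand) had a ratio of 1.01 with a counting interval from 0.986 to 1.03. *Irf9* (ENSMUSG00000002325, chr14:56222408-56228867, plus strand) had a ratio of 0.992 with a counting interval from 0.921 to 1.07. *Irf1* (ENSMUSG00000018899) had a ratio of 1.03 with a counting interval from 0.969 to 1.09. *Irf3* (ENSMUSG00000003184, chr7:52253018-52258218, plus strand) had a ratio of 1.05, and its wider counting interval, from 0.897 to 1.23, rests on about 333 and 309 fragments. These intervals do not show that the 4 genes were equal. With the shortest transcript of *Irf3* in place of the median one, its interval widened to 0.803 to 1.38.

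**Figure D2:**
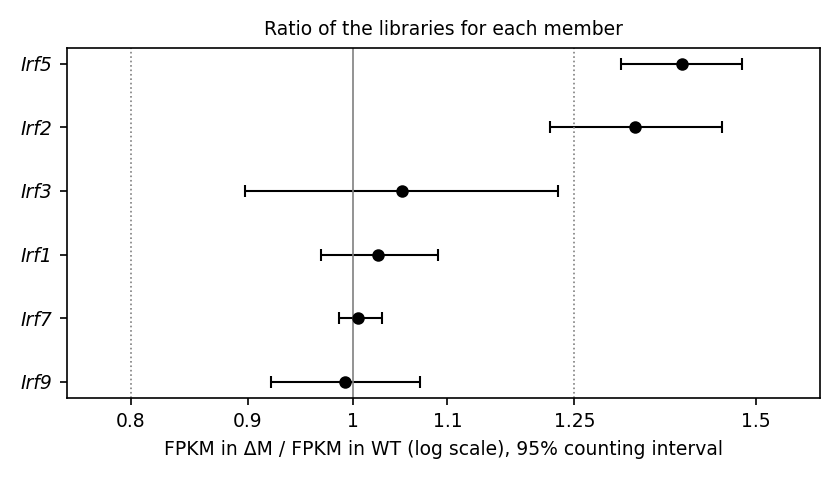
Ratio of FPKM in ΔM to FPKM in WT (log scale) for the 6 members that averaged 1 FPKM or more, with the 95% counting interval as bars, a solid line at 1 and dotted lines where one library exceeds the other by 25%. The bars of *Irf5* and *Irf2* lie wholly to the right of 1, and those of *Irf3*, *Irf1*, *Irf7* and *Irf9* cross it.

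*Irf4* (ENSMUSG00000021356, chr13:30841095-30858796, plus strand) was under the minimum mean of 1 FPKM. Its level in WT rests on about 5 fragments, with a counting interval from 0.0097 to 0.070 FPKM. The 0 in ΔM allows a level of up to 0.0204 FPKM (3 fragments), so a difference between the libraries was not detectable at this depth. The 5 dendritic cell markers, each under 1 FPKM, had summed levels of 0.22 (WT) and 0.29 FPKM (ΔM). Their relation to *Irf4* was not tested.

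Among all genes that averaged 1 FPKM or more, 1555 had a larger log2 ratio than *Irf5* and 1933 than *Irf2*. A gene is counted below where, after adding 1 FPKM, the higher library exceeded the lower by at least 25%. Among the 6 members compared in this way, 2 were higher in ΔM and 0 were lower. The counting interval of *Irf2* reached below this margin, and that of *Irf5* did not with the median transcript length. Of the 10765 genes that averaged 1 FPKM or more, 21.2% were higher by that margin and 15.5% were lower. At a fold of 1.5, 0 members were higher and 0 lower, where 11.2% of the genes were higher and 7.51% lower. The background of all genes includes short RNA genes, and among the 8078 protein-coding genes 14.2% were higher by 25% or more and 14.5% lower. *Irf5* had a larger log2 ratio than 92.3% of these protein-coding genes, *Irf2* than 89% and *Irf3* than 59.9%. *Irf1*, *Irf7* and *Irf9* stood at 56.1%, 51.5% and 48.8%, near the middle. The share of protein-coding genes higher by 25% or more was 16.9% at a mean of 1 to 10 FPKM and 5.75% at 300 FPKM or more. The share lower by that margin was 15.6% and 11.5% there, with 7.07% at 100 to 300 FPKM. Of the 297 protein-coding genes with a mean of 100 to 300 FPKM, the range of *Irf5*, 25 genes were higher by 25% or more (8.42%), and of the 1776 genes with a mean of 10 to 30 FPKM, the range of *Irf2*, 193 genes were (10.9%). In both ranges the 95th percentile of the log2 ratio was 0.48, beside 0.47 for *Irf5* and 0.38 for *Irf2*. The median log2 ratio of the 6 members was 0.05, against 0.03 over all genes compared and -0.0015 over the protein-coding genes.

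**Figure D3:**
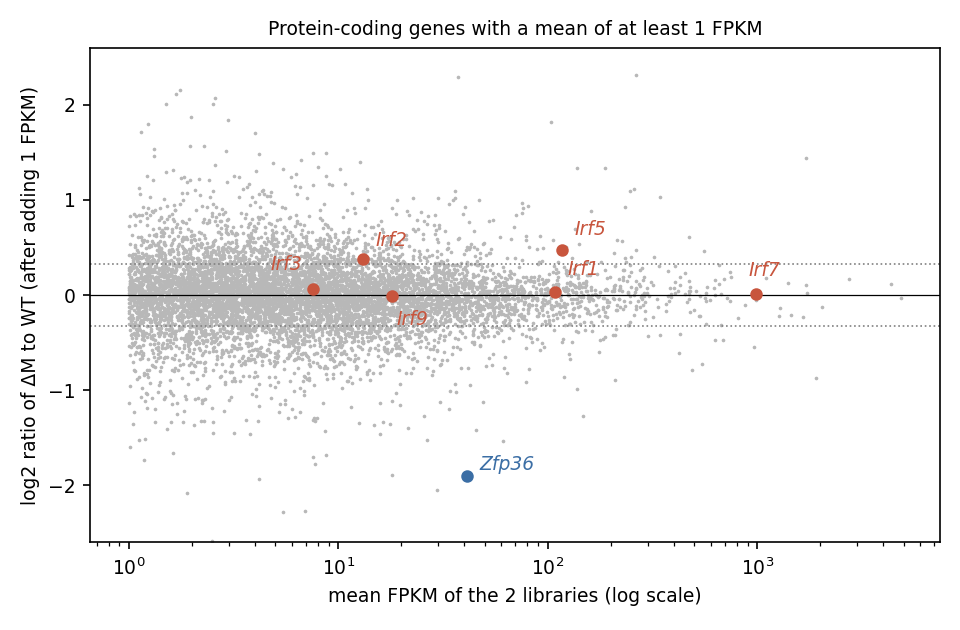
Log2 ratio of ΔM to WT (after adding 1 FPKM) against the mean FPKM of the libraries (log scale) for 8078 protein-coding genes, with 11 of them outside the axis. The IRFs are in red and *Zfp36* in blue, and dotted lines mark a margin of 25%. *Irf5* and *Irf2* lie above the upper dotted line within the cloud of genes, the other members lie near 0, and *Zfp36* lies far below at -1.90.

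AU-rich motifs were counted in the 3′ UTR of each member, and their part in the ratios was not tested. In the transcript with the longest coding sequence of each gene, *Irf5* had 2 matches to ATTTA in 534 nt and *Irf2* had 1 in 1236 nt. *Irf1* had 3 in 877 nt, including 1 match to the longer TATTTAT, which contains ATTTA and marks the classical TTP element. *Irf9* had 1 match to ATTTA in 999 nt, *Irf4* had 3 in 3260 nt with 1 match to TATTTAT, and *Irf3* (502 nt) and *Irf7* (42 nt) had none. For *Zfp36*, whose mRNA is a known TTP target, 3 matches to ATTTA and 3 to TATTTAT were found in 774 nt. Over 7935 protein-coding genes that averaged 1 FPKM or more, 63.1% had ATTTA and 24.9% had TATTTAT in the 3′ UTR. Only the sense strand was searched, and a match does not show binding.

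Several members share their locus with other genes, and whether the counting used strand is not given in the sources used here. *Tnpo3*, on the opposite strand, overlaps *Irf5* by 1043 nt and was at 17.4 (WT) and 15.3 FPKM (ΔM). *Bcl2l12* overlaps *Irf3* by 1065 nt on the opposite strand and was at 1.63 (WT) and 3.74 FPKM (ΔM). *Rnf31*, which encodes a subunit of the linear ubiquitin ligase, overlaps *Irf9* by 123 nt on the same strand and was at 46.4 (WT) and 33.9 FPKM (ΔM). *Phrf1* overlaps *Irf7* by 45 nt and had a ratio of 0.909, and *Gm17334* overlaps *Irf1* by 907 nt and had a ratio of 0.952. The noncoding RNA gene *Gm16675* starts 230 nt from *Irf2* on the opposite strand and was at 0.60 (WT) and 1.23 FPKM (ΔM). Reads in the shared stretches cannot be assigned to either gene without strand.

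The genes around the IRFs were read from lists of their partners, activators, inhibitors and target genes. Of 12 partner genes, 10 had a row and 6 averaged 1 FPKM or more, with a median log2 ratio of 0.12. None of them was higher by 25% or more and 1 was lower. The shares were 21.2% and 15.5% over all genes and 14.2% and 14.5% over protein-coding genes. *Ep300*, an acetyltransferase recruited by IRFs, had the largest log2 ratio (0.31, from 7.09 to 9.03 FPKM). *Batf*, an AP-1 factor that binds DNA together with IRF4, had the smallest (-0.59, from 21.7 to 14.1 FPKM). *Stat2*, which encodes a partner of IRF9, was at 68.1 (WT) and 73.0 FPKM (ΔM).

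Of 22 sensors, adaptors and kinases upstream of the IRFs, 21 had a row and 19 averaged 1 FPKM or more. Of these, 3 were higher and 1 was lower by 25% or more, with a median log2 ratio of 0.02. The shares were 21.2% and 15.5% over all genes and 14.2% and 14.5% over protein-coding genes. *Tlr4*, the LPS receptor gene, had the largest log2 ratio (0.38, from 12.2 to 16.3 FPKM) and *Tlr7*, an endosomal receptor for RNA, the smallest (-0.35, from 65.8 to 51.4 FPKM). The others past this margin, named after their values were seen, were *Tlr3*, which encodes a sensor of double-stranded RNA, at 8.82 (WT) and 11.7 FPKM (ΔM), and *Tmem173*, which encodes the adaptor STING, at 7.46 (WT) and 9.80 FPKM (ΔM). The kinase genes *Tbk1* and *Ikbke*, whose products phosphorylate IRF3, were at 33.8 and 83.6 FPKM in the WT library and at 30.6 and 78.3 FPKM in the ΔM library. Of 14 inhibitors of IRF or interferon signaling, 12 averaged 1 FPKM or more, with a median log2 ratio of -0.04. Beside 21.2% and 15.5% of all genes (14.2% and 14.5% of protein-coding genes), 0 of them were higher and 1 was lower by 25% or more. Their extremes were *Usp18*, which blocks the type I interferon receptor (0.30, from 305 to 376 FPKM), and *Tnfaip3*, which encodes the deubiquitinase A20 (-0.58, from 109.9 to 73.3 FPKM).

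Of 24 genes with promoters known to be bound by IRFs, 21 averaged 1 FPKM or more. Their median log2 ratio was 0.09. By 25% or more, 5 were higher and 3 were lower in ΔM, beside 21.2% and 15.5% of all genes. By a fold of 1.5, 2 were higher and 0 lower, where 11.2% and 7.51% of all genes were. Among protein-coding genes the shares were 14.2% and 14.5% by 25% or more, and 4.82% and 5.36% by a fold of 1.5. *Il27*, a cytokine subunit gene, had the largest log2 ratio (1.33, from 107 to 269.7 FPKM). *Rsad2*, which encodes the antiviral protein viperin, had the smallest (-0.47, from 731 to 527 FPKM). The others past the margin of 25% are named here after their values were seen. The cytokine genes *Tnf* and *Il6* had ratios of 1.9 and 1.41, *Cd274*, which encodes the inhibitory ligand PD-L1, had a ratio of 1.42 and *Nos2*, which encodes inducible nitric oxide synthase, one of 1.32. The chemokine gene *Ccl5* and the cytokine subunit gene *Il12b* had ratios of 0.722 and 0.718. *Nos2*, a target of IRF1, was at 277 (WT) and 367 FPKM (ΔM). The antiviral genes *Ifit1*, *Ifit2* and *Ifit3* had ratios of 0.998, 0.886 and 1.16. No link between a member and its target genes was tested. The list thus held values on both sides of 0, as did the lists of partners, upstream genes and inhibitors, and no list is called different from the rest of the genes.

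**Figure D4:**
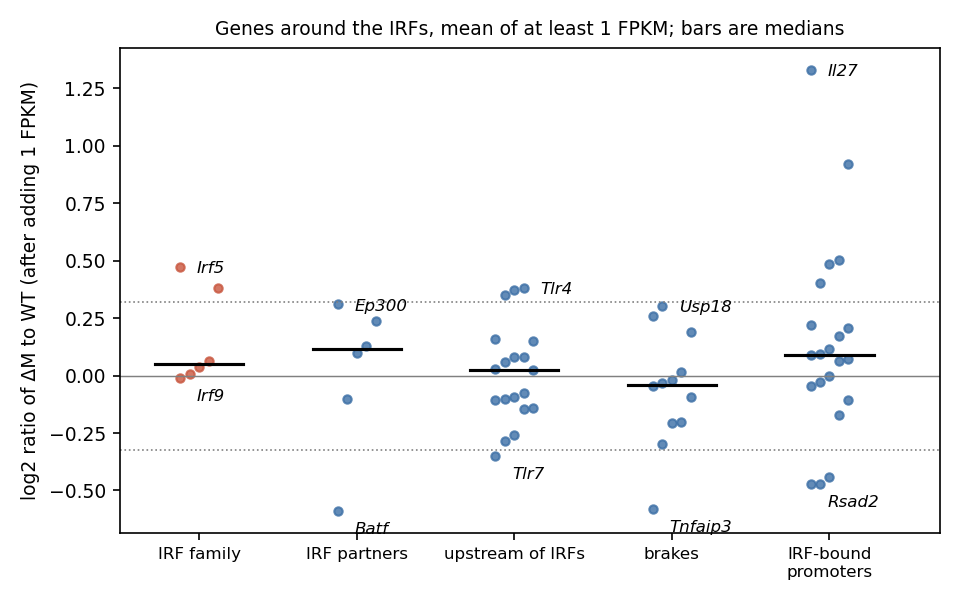
Log2 ratio of ΔM to WT (after adding 1 FPKM) for the genes of each list that averaged 1 FPKM or more, with horizontal bars for the list medians and dotted lines at a margin of 25%. The highest and lowest gene of each list is named, and the medians lie between -0.04 and 0.12.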

How the data were processed

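RNA was depleted of rRNA. After adaptor trimming, the authors aligned reads with Segemehl to mm9, discarded those with several positions, and obtained gene levels with Cufflinks from Ensembl exons. Each gene has a deposited FPKM with 2 decimals per genotype. The sample names contain a 7 beside LPS, whereas the treatment text gives 6 h. Columns were assigned by name, and 1 gene without a number in ΔM was left out. Locus starts were counted from 1. Annotation was GENCODE M1 on NCBIM37 (37039 of 37451 identifiers matched). No count model was applied, since FPKMs are normalised.

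Depth was found as the number of fragments and mean fragment length (200 nt in both libraries) that make the low FPKMs of genes with 1 transcript fall on whole fragments. At these settings 95.1% (WT) and 94.7% (ΔM) of the low values were within 0.15 of a whole number, against 30% for evenly spread values. The search was tested on simulated data. Poisson and conditional binomial intervals used the median transcript length. Log2 ratios used a pseudocount of 1 FPKM, in genes that averaged 1 FPKM or more, and understate changes of low genes.

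All members and *Zfp36* are named, as are the extremes of each list and genes that overlap a member or start within 5 kb of its start. Other named genes were chosen after their values were seen, and some items are not reported here. Members and lists were chosen with earlier results of these data known. The list genes *Spi1*, *Irf2bpl* and *Mb21d1* were not analysed here. Alternatives covered the pseudocount, the filter, scaling, gene type and transcript length. Python 3.11.15, numpy 2.4.6, pandas 2.3.3, scipy 1.17.1 and matplotlib 3.10.9 were used.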

Additional observations from a re-analysis of the deposited data

How the results depend on the processing

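No paired analysis was possible because each genotype has 1 library, which also leaves no library to omit. Under 4 other pseudocounts or scalings, the log2 ratio of each of the 6 members compared and of *Zfp36* stayed within its counting interval and kept its direction, from 0.47 to 0.48 for *Irf5*, from 0.38 to 0.41 for *Irf2* and from -0.0112 to -0.0071 for *Irf9*. The counts of members past a margin of 25% or a fold of 1.5 were the same in all 28 comparisons with an alternative. The rescaling used a factor of 1.003 and the centring a median log2 ratio of -0.0015, so both could hardly change these counts. The median of the partner list moved from 0.12 to -0.0002 with a minimum mean of 10 FPKM.

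Counts of all genes fell where fewer genes entered. With a minimum mean of 10 FPKM, 1014 genes were higher and 596 lower by 25% or more, 612 and 278 by a fold of 1.5, and 306 and 130 by a fold of 2. Among protein-coding genes alone, 1147 were higher by 25% or more, 389 higher and 433 lower by a fold of 1.5, and 96 higher and 107 lower by a fold of 2. The width of the counting interval moved by more than 1.5 times in 14 of 28 comparisons with the longest or shortest transcript, and with the shortest the ratio interval of *Irf5* ran from 1.24 to 1.56 and that of *Irf3* from 0.803 to 1.38. Depth limits *Irf4* most.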

Other observations

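The genes of the IRF2-binding corepressors were low, with *Irf2bp1* at 0.68 (WT) and 1.19 FPKM (ΔM) and *Irf2bp2* at 0.68 and 0.86 FPKM. *Ifnb1*, the interferon β gene, was listed at 0 in WT and was at 0.48 FPKM in ΔM after 6 h of LPS. No counting interval was computed for *Ifnb1*, and a listed 0 still allows up to 3 fragments, so a difference is not claimed. The interferon-induced *Cxcl10* was at 4171 (WT) and 4521 FPKM (ΔM). All of these genes were chosen after their values were seen, and no explanation was tested.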
